A study of Solanum lycopersicum with 3 samples.

Results

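The antioxidant and thiol redox genes of tomato were followed in ripe fruit of Lycb-1, a transgenic line that expresses a citrus lycopene β-cyclase, and of its wild type (WT). Probes were taken by the words of their descriptions on the TOM2 long-oligo array (ascorbate, superoxide dismutase, catalase, glutathione peroxidase, glutathione reductase, glutaredoxin, thioredoxin, peroxiredoxin, galactono-1,4-lactone, GDP-mannose, metallothionein and ferritin), leaving out glutathione S-transferases and 2 named probes, which removed 0 probes. These words matched 125 of the 11863 gene probes, and 79 of the 125 were tested. Lycb-1 plants are of the cultivar Zhongshu No. 5 and carry the Lycb-1 reading frame under the constitutive 35S promoter with a kanamycin resistance gene, and those used for the arrays descend from 1 transformed plant. WT plants are of the same cultivar without the construct, and both genotypes were grown in the same glasshouse conditions. The fruits were deseeded and picked ripe, 10 days after the breaker stage. Each of the 3 arrays compared 1 pool of Lycb-1 fruit, labelled with Cy5, with 1 pool of WT fruit, labelled with Cy3, and a pool held 4 to 5 fruits from 3 plants. No array had the dyes swapped (0 of 3), and an effect of the transgene, one particular to the line and one of the dye on a probe cannot be told apart.

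Superoxide dismutases turn superoxide into hydrogen peroxide, which catalases break down in peroxisomes and ascorbate peroxidases reduce in several compartments with ascorbate (vitamin C) as the donor. Monodehydroascorbate reductase and dehydroascorbate reductase return the oxidised forms to ascorbate, the second with glutathione, which glutathione reductase keeps reduced with NADPH. Thioredoxins and glutaredoxins reduce disulphides of other proteins, peroxiredoxins and glutathione peroxidases reduce peroxides with their help, and metallothioneins and ferritins bind metals. Ripening tomato fruit, in which chloroplasts become chromoplasts, is rich in ascorbate and in these enzymes.

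The labels were checked on 2 probes. The probe of the resistance gene nptII (X57709) had a mean log2 ratio of Lycb-1 over WT of 6.80 (SE 0.46, n = 3, limma adjusted p = 0.045), and the tomato unigene probe of lycopene β-cyclase (SGN-U221920) one of 3.08 (SE 0.20, n = 3, limma adjusted p = 0.045). Whether this tomato probe reads the citrus transcript, the tomato one or both was not tested. The nptII probe had 5150, 8289 and 3825 units of deposited intensity in Lycb-1, against 64.8, 38.3 and 81.7 units in WT. The WT values are close to the level of empty spots, so the size of its ratio depends on the floor and was 5.65 with 50 units added to both channels. Its adjusted p was 0.056 with the authors' ratio, 0.193 without the filter on dim spots and 0.532 without replicate 1 (limma). The lycopene β-cyclase probe had the same adjusted p in each of these settings. Without replicate 2 the limma adjusted p was 0.084 for lycopene β-cyclase and 0.019 for nptII, and without replicate 3 it was 0.074 and 0.029. Among 23 tested probes of ripe fruit markers, 8 were higher and 3 lower in Lycb-1 at an unadjusted p under 0.05 (limma). Of all tested probes, 6.82% were higher and 8.62% lower, shares that also stand beside the seed and chloroplast counts below. The 8 higher were probes of polygalacturonase-2, 1-aminocyclopropane-1-carboxylate oxidase 4, phytoene synthases 1 and 2, protein E8 and the fruit-specific protein. The 3 lower (SGN-U213818, SGN-U213819 and SGN-U222669) entered by the word polygalacturonase, and the last is described as its inhibitor. The 53 probes of this list summed to 503814 to 610617 units of deposited intensity in Lycb-1 and 188355 to 225956 units in WT. Among 6 tested seed probes, 2 were higher and 1 lower, with sums over all 12 of 18917 to 45360 units in Lycb-1 and 19254 to 22518 units in WT. The 3 legumin-like storage protein probes had at most 438 units on any array. The 2 higher were steroleosin (SGN-U216554), an oil body protein, and the late embryogenesis-like SGN-U214534 (normalised log2 ratios 1.68 and 0.74). Steroleosin had 11424, 9544 and 6247 units in Lycb-1, against 3142, 1330 and 4012 units in WT. The late embryogenesis-like U77719 was not called (log2 ratio 0.47, limma unadjusted p = 0.618). It had 8067, 2832 and 63 units in Lycb-1, against 2457, 614 and 409 units in WT. In the other direction, SGN-U218425 (seed storage and lipid transfer family) had 1906, 1525 and 601 units in Lycb-1, against 1839, 3875 and 2737 units in WT (log2 ratio -1.45). SGN-U221589, the brightest of the seed list and of the same family, had a log2 ratio of -0.54. Among 9 tested probes of chloroplast photosynthesis genes, 0 were higher and 4 lower, with sums over all 22 of 29886 to 55008 units in Lycb-1 and 26785 to 41460 units in WT. The 4 lower were chlorophyll a/b-binding SGN-U213105, M14444 and SGN-U218911 and Rubisco small chain SGN-U225544. Their log2 ratios were -2.26, -1.91, -1.68 and -0.63. Some untested probes of the Rubisco small chain stood apart on replicate 1, such as SGN-U225538 with 6553, 945 and 130 units in Lycb-1, against 427, 444 and 349 units in WT, and SGN-U225541 with 4951, 939 and 101 units in Lycb-1, against 256, 204 and 251 units in WT. Of the tested ones, SGN-U225501 also did, with 5647, 1267 and 937 units in Lycb-1. SGN-U225500 did not, with 14710, 16465 and 13429 units in Lycb-1, nor did SGN-U225550, with 4252, 7268 and 6345 units. No probe of the 3 lists passed the adjusted threshold. These sums are not normalised between the channels, and the part of these lists in the redox results was not tested. In deseeded fruit, fewer cells of a type and less RNA per cell cannot be told apart.

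Most of the enzyme families gave probes bright enough to test, and ascorbate oxidase gave none. The intensity is the fluorescence of a spot after subtraction of the background, in arbitrary units. Empty spots had a 99th percentile of 10, 10 and 15 units in the Lycb-1 channel and 34, 27 and 33.7 units in the WT channel of replicates 1, 2 and 3. A probe was tested where its spot had at least 400 units in the brighter channel on all 3 arrays, which 63.2% of the redox probes did. Of the 46 probes that were not tested, 38 passed this limit on 0 arrays and 8 on some, though 31 of the 46 were above the empty spots in the brighter channel on every array. The 8 ascorbate oxidase probes, for the enzyme that oxidises ascorbate in the cell wall, were all among them, with at most 233 units on any array. Also untested were 9 of 15 ascorbate peroxidase probes, 8 of 17 glutaredoxin probes, 8 of 25 thioredoxin probes, 4 of 9 probes of ascorbate synthesis, 3 of 8 glutathione peroxidase probes and 1 nucleobase-ascorbate transporter. Of the 79 tested probes, 78 had at least 400 units in both channels on every array, and 0 lay within 1% of the brightest spot. Each redox probe was printed as 1 spot.

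**Figure D1:**
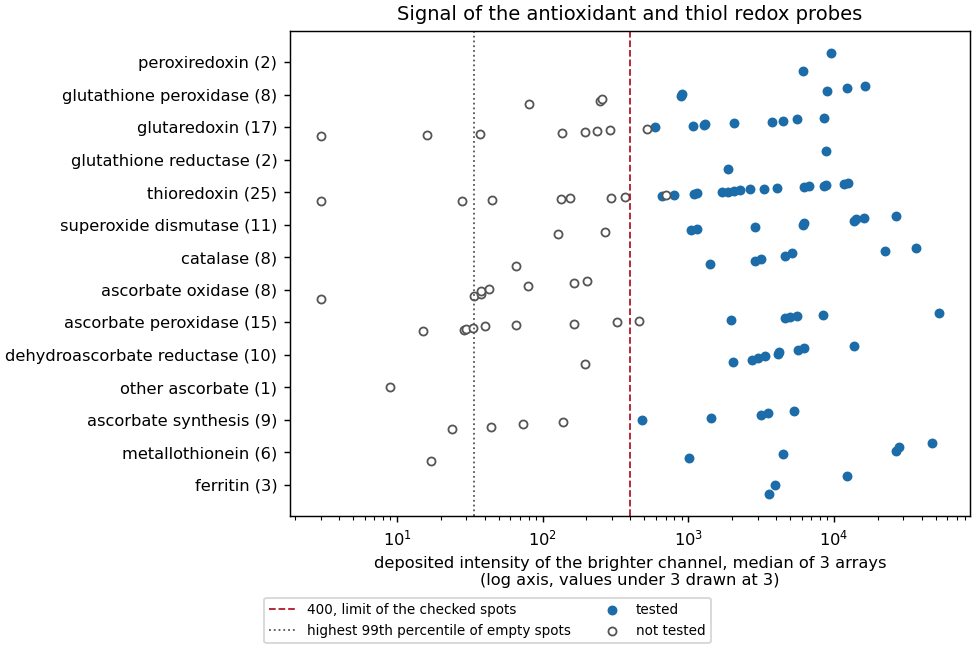
Deposited intensity of the brighter channel (median of 3 arrays, log axis) of each of the 125 redox probes, by role with the number of probes in brackets. Filled points were tested and open points were not; all 8 ascorbate oxidase probes lie left of the limit of 400 units.

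None of the 79 tested redox probes differed between Lycb-1 and WT at a limma adjusted p under 0.05, where 3 of all 5720 tested probes did (0.0524%), and the lowest adjusted p was 0.191. Ratios are normalised log2 ratios of Lycb-1 over WT averaged over 3 arrays, and each SE is that of this mean with the variance moderated by limma. At an unadjusted p under 0.05 there were 16 redox probes (20.3%), against 15.4% of all tested probes. Of these, 9 were higher in Lycb-1 (11.4%, against 6.82% of all tested probes) and 7 lower (8.86%, against 8.62%). Log2 ratios lay above 0 on every array for 22 redox probes (27.8%, against 20.4%) and below 0 on every array for 16 (20.3%, against 21.3%). Both signs were measured for 41 of the 79 redox probes, beside 3335 of all 5720 tested probes. Normalised intensities of the 3 Lycb-1 pools all lay above those of the 3 WT pools for 7 probes (8.86%, against 7.17%) and all below for 9 probes (11.4%, against 8.15%). A mean ratio of at least 2-fold in either direction was measured for 4 probes (5.06%, against 6.28%), 3 of them catalases. These shares describe the redox set and were not tested against the other probes.

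As a set the redox probes were centred near 0. Their median log2 ratio was 0.02 over a range of -1.15 to 1.43, beside -0.01 for all tested probes, and the median size of the ratio was 0.33, beside 0.27. The mean ratio was above 0 for 41 probes and below 0 for 38, a split that was 54 and 25 when each array was centred on its median instead of by print-tip loess. That centring moved the median of all probes to 0.15, put 19 redox probes higher and 3 lower at an unadjusted p under 0.05, and turned the sign of 13 redox ratios, which lay between -0.55 and 0. Of the 16 probes, 12 kept an unadjusted p under 0.05 (limma) with it, and SGN-U212687, SGN-U212974, SGN-U213609 and SGN-U214077 did not. Of the 79 probes, 66 kept their sign under all 4 other scalings (the authors' ratio, median centring, global loess and 50 units added to both channels). The count of 16 also depends on the arrays and the test: it was 10 without replicate 1, 6 without replicate 2, 5 with an ordinary t statistic in place of limma's and 8 with the channels unpaired.

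**Figure D2:**
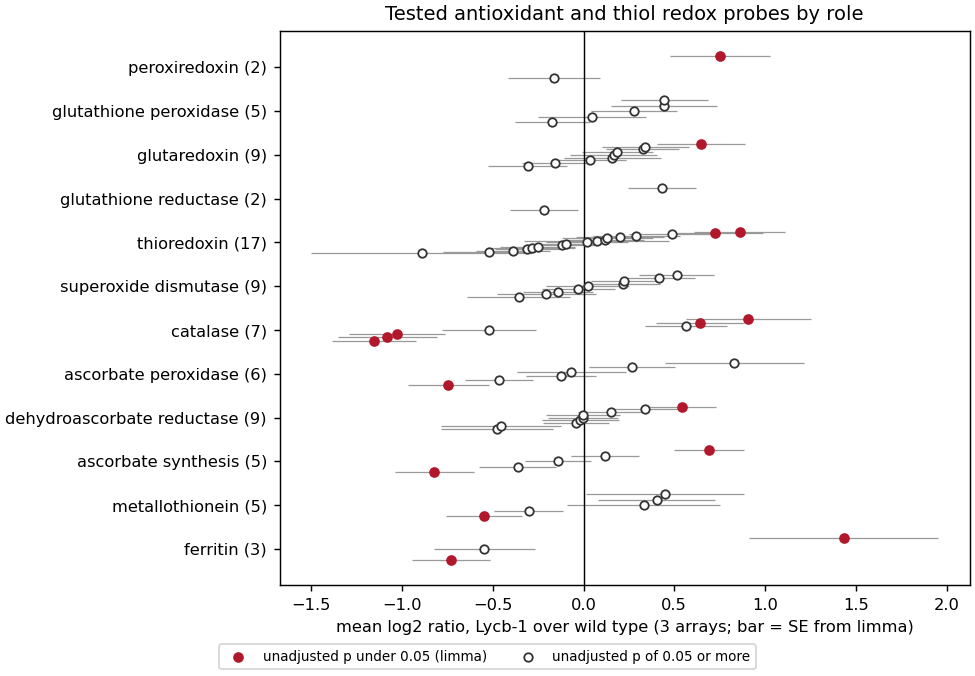
Mean log2 ratio of Lycb-1 over WT for each of the 79 tested redox probes, by role with the number tested in brackets; bars are the SE from limma (n = 3 arrays) and filled points have an unadjusted p under 0.05. The catalases spread from -1.15 to 0.91, and most thioredoxin and superoxide dismutase probes lie near 0.

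Catalases, the peroxisomal enzymes that split hydrogen peroxide into water and oxygen, held the lowest ratios of the redox set and ran in both directions. Of 7 tested probes, 5 had an unadjusted p under 0.05 (3 lower and 2 higher in Lycb-1), beside 15.4% of all tested probes, and 0 passed after adjustment. SGN-U232054 (catalase) had normalised intensities of 1435, 1278 and 1473 in Lycb-1, against 4018, 3091 and 2394 in WT, on the arrays of replicates 1, 2 and 3. Its mean log2 ratio of -1.15 (SE 0.23, n = 3, limma adjusted p = 0.191) places Lycb-1 at 0.449 times the WT level. All 3 Lycb-1 values were under all 3 WT values. The brightest probe, SGN-U212687 (catalase isozyme 1), had 17337, 13949 and 22514 in Lycb-1, against 44067, 38862 and 30079 in WT. The groups did not overlap, but replicate 3, with a log2 ratio of -0.42, was closer to 0 than replicates 1 and 2, with -1.35 and -1.48. Over the arrays the log2 ratio of isozyme 1 was -1.08 (SE 0.27, limma adjusted p = 0.242), and -0.71 with each array centred on its median. SGN-U242631 (catalase-3) had 2660, 2471 and 2867 in Lycb-1, against 8249, 4476 and 4331 in WT, with a mean log2 ratio of -1.03 (SE 0.26, limma adjusted p = 0.244). In Lycb-1 this probe varied little between pools, and the highest WT value was that of replicate 1. A further probe, SGN-U224934, described as catalase 3 of pepper, had log2 ratios of -0.69, -0.94 and 0.06, so its sign turned on replicate 3.

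The other 3 catalase probes had higher values in Lycb-1 on every array. SGN-U223576 (catalase isozyme 3) had 2742, 2736 and 3563 in Lycb-1, against 2679, 874 and 1725 in WT, and a mean log2 ratio of 0.91 (SE 0.34, limma adjusted p = 0.316). The Lycb-1 values of replicates 1 and 2 were nearly the same, while their log2 ratios were 0.03 and 1.65, with the lowest WT value on replicate 2. Isozyme 2 was read by a pair of probes with the same protein accession. AF112368 had 715, 1710 and 1365 in Lycb-1, against 637, 811 and 849 in WT (mean log2 ratio 0.64, SE 0.24, limma adjusted p = 0.312), and SGN-U213634 had 4140, 4986 and 6179 in Lycb-1, against 3831, 2882 and 3561 in WT (mean log2 ratio 0.57, SE 0.23, limma adjusted p = 0.334). Both had their smallest ratio on replicate 1. The log2 ratio of isozyme 1 (SGN-U212687) minus that of isozyme 2 (SGN-U213634) was -1.46, -2.27 and -1.21 within the 3 arrays (mean -1.65, SD 0.55), below 0 on each, with an exact two-sided sign-flip permutation p of 0.25, the smallest that 3 arrays allow. This was 1 of 5 such pairs, all picked after their values were seen and all with that p. Both probes of this pair kept opposite signs on every array, so the sign of the difference and its p followed from the choice. The sign of all 7 catalase probes was the same under print-tip loess and the 4 other scalings. The annotation gives 5 of the 7 probes, including both isozyme 1 and SGN-U213634, the same best Arabidopsis match (AT4G35090), and whether any of them detect a common transcript was not tested.

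**Figure D3:**
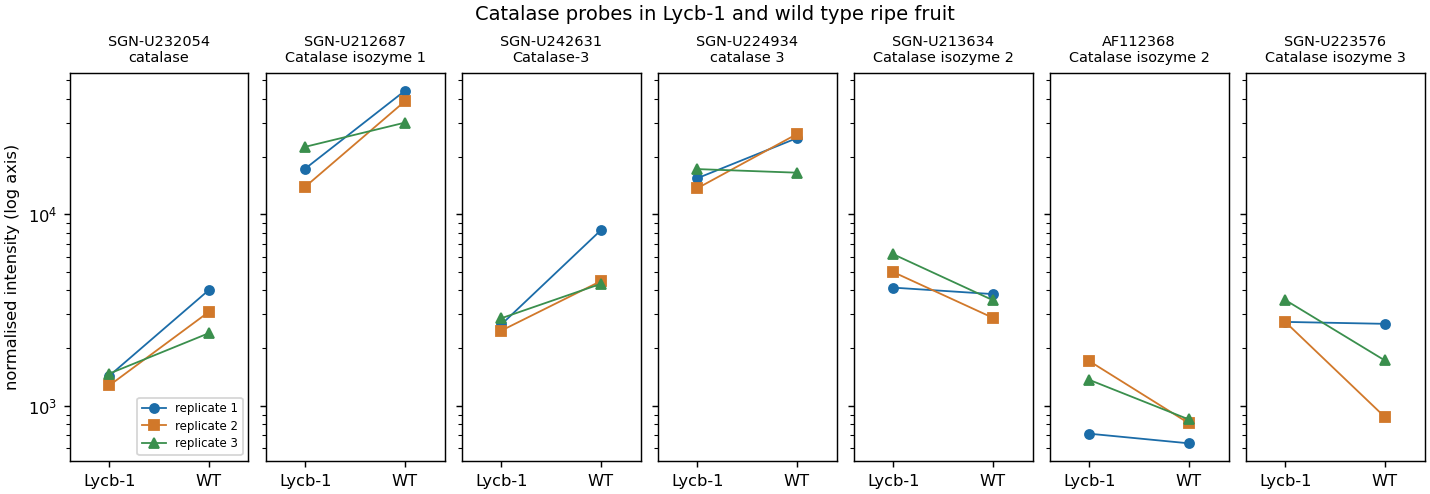
Normalised intensity (log axis) of the 7 tested catalase probes in Lycb-1, left, and WT, right, with a line for each of the 3 arrays. The lines of the first 3 probes all run below WT in Lycb-1, and those of the last 3 all run above it.

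Superoxide dismutases showed small ratios. Of 9 tested probes, 4 were higher in Lycb-1 on all 3 arrays (44.4%, against 20.4% of all tested probes) and 0 lower (against 21.3%), and 0 had an unadjusted p under 0.05 (limma), in a range of -0.36 to 0.51. The largest ratio was that of X14041, a chloroplastic copper-zinc form, with 1058, 1209 and 1357 in Lycb-1, against 701, 1068 and 797 in WT. Its 3 arrays all lay above 0, while the groups overlapped by the lowest Lycb-1 and the highest WT value (mean log2 ratio 0.51, SE 0.21, n = 3, limma adjusted p = 0.334). The probes M37151 and SGN-U215794 carry the same protein accession as X14041 and had mean log2 ratios of 0.22 and -0.03. M37150, copper-zinc superoxide dismutase 1 and the brightest of the group, had 23756, 22541 and 18294 in Lycb-1, against 17078, 24921 and 21948 in WT, with ratios on both sides of 0. Its mean log2 ratio was 0.02 (SE 0.23), with a 95% interval of -0.56 to 0.61. The mitochondrial manganese form (SGN-U215318) had 0.22 (SE 0.20), and SGN-U216224, described as a copper/zinc superoxide dismutase copper chaperone, 0.41 (SE 0.20, limma adjusted p = 0.387). At the other end stood an iron form (SGN-U226703) at -0.36 (SE 0.28), whose sign was not shared by replicate 2.

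Ascorbate synthesis runs in plants from GDP-mannose to L-galactose and ends at L-galactono-1,4-lactone dehydrogenase in the mitochondrion. Of 9 probes 5 were tested, and a neighbouring pair of steps had opposite signs. SGN-U214427, GDP-mannose 3',5'-epimerase, which makes GDP-L-galactose, had 5012, 4869 and 4753 in Lycb-1, against 2908, 2703 and 3518 in WT. Every Lycb-1 value exceeded every WT value (mean log2 ratio 0.69, SE 0.19, n = 3, limma adjusted p = 0.252), and Lycb-1 stood at 1.61 times the WT level. SGN-U213366, GDP-mannose pyrophosphorylase, which makes the GDP-mannose that the epimerase uses and that cell walls and glycoproteins also draw on, had 590, 746 and 750 in Lycb-1, against 797, 1429 and 1603 in WT. Here every Lycb-1 value was below every WT value (mean log2 ratio -0.82, SE 0.22, limma adjusted p = 0.244). A further probe with the same accession, SGN-U213367, had -0.36 (SE 0.21), and 0.03 with each array centred on its median. The epimerase minus SGN-U213366 was 1.22, 1.79 and 1.53 within the 3 arrays (mean 1.51, SD 0.28), above 0 on each, with an exact two-sided sign-flip permutation p of 0.25, the smallest possible. This pair too was picked with its opposite signs on every array known, so that p adds nothing to them. L-galactono-1,4-lactone dehydrogenase (SGN-U220605) had a mean log2 ratio of -0.14 (SE 0.18) at low signal, with 464, 387 and 776 in Lycb-1, against 477, 473 and 830 in WT. GDP-mannose 4,6-dehydratase (SGN-U219161), which takes GDP-mannose towards fucose and entered by its name, had 0.12 (SE 0.19).

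Ascorbate peroxidases, which spend ascorbate to reduce hydrogen peroxide, also had both signs. The lowest of 6 tested probes was SGN-U214077, whose best Arabidopsis match (AT4G35000) encodes a peroxisomal enzyme, with 3502, 2175 and 2830 in Lycb-1, against 4999, 4962 and 4090 in WT. The groups did not overlap (mean log2 ratio -0.74, SE 0.22, n = 3, limma adjusted p = 0.272). SGN-U215177, a cytosolic form and the brightest probe of the family, had 45834, 64657 and 26995 in Lycb-1, against 30960, 17652 and 25999 in WT. Each array had the higher value in Lycb-1, with a log2 ratio of 1.87 on replicate 2 but 0.05 on replicate 3, and the WT value of replicate 1 lay above the lowest Lycb-1 value (mean 0.83, SE 0.38, limma adjusted p = 0.374). Without replicate 2 its mean was 0.31. SGN-U213036 was lower on all 3 arrays, with log2 ratios of -0.62, -0.27 and -0.51 (mean -0.47, SE 0.19). A further cytosolic form (SGN-U213034), the stromal chloroplast form (SGN-U214170) and SGN-U232279 had means of 0.27, -0.13 and -0.07 with mixed signs. The cytosolic SGN-U215177 minus SGN-U214077 was 1.08, 3.06 and 0.59 within the arrays (mean 1.58, SD 1.31), with the same smallest exact permutation p of 0.25. That p again followed from picking probes of opposite sign on every array.

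**Figure D4:**
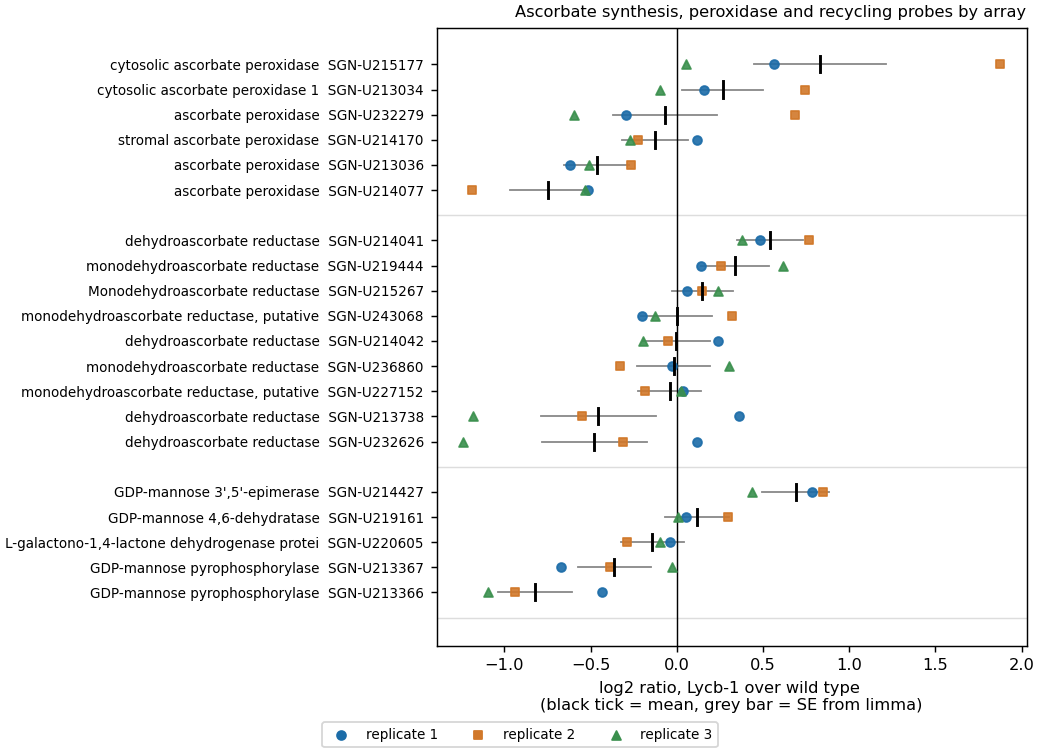
Log2 ratio of Lycb-1 over WT on each array for the tested ascorbate peroxidase (top), recycling (middle) and synthesis (bottom) probes, with the mean and the SE from limma. The epimerase SGN-U214427 lies right of 0 on all arrays at a mean of 0.69 and the pyrophosphorylase SGN-U213366 left of 0 at -0.82.

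The enzymes that recycle ascorbate had ratios near 0, apart from dehydroascorbate reductase. Of 9 tested probes, 1 had an unadjusted p under 0.05 (11.1%, against 15.4% of all tested probes, limma), 3 were higher in Lycb-1 on all arrays (33.3%, against 20.4%) and 0 lower (against 21.3%). Dehydroascorbate reductase SGN-U214041 had 2517, 3523 and 3205 in Lycb-1, against 1801, 2072 and 2470 in WT. All Lycb-1 values were above all WT values, the closest pair being 2517 in Lycb-1 and 2470 in WT (mean log2 ratio 0.54, SE 0.19, n = 3, limma adjusted p = 0.295). SGN-U214042, with the same protein accession, did not follow it, with log2 ratios of 0.24, -0.05 and -0.20. The probes SGN-U232626 and SGN-U213738 share another accession and had the same order of arrays, with log2 ratios of 0.12, -0.31 and -1.24 for the first and 0.36, -0.55 and -1.18 for the second. Both means, -0.48 (SE 0.31) and -0.45 (SE 0.33), rest mainly on replicate 3, and without it SGN-U232626 stood at -0.10. Monodehydroascorbate reductase was read by 5 tested probes, of which SGN-U215267 was the brightest. It had 11557, 12168 and 10717 in Lycb-1, against 11086, 10982 and 9085 in WT, a mean log2 ratio of 0.15 (SE 0.18) and a 95% interval of -0.31 to 0.61. The other 4 means ran from -0.04 (SGN-U227152) to 0.34 (SGN-U219444).

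In the glutathione system, 1 of 2 reductase and 4 of 5 peroxidase probes had means above 0, beside 2810 of all 5720 tested probes. None passed after adjustment. Chloroplastic glutathione reductase (SGN-U215567), which regenerates reduced glutathione, had 7836, 7061 and 8261 in Lycb-1, against 6640, 4629 and 6052 in WT. The groups did not overlap (mean log2 ratio 0.43, SE 0.19, n = 3, limma adjusted p = 0.356). The other glutathione reductase, SGN-U213865, had 1293, 1808 and 1942 in Lycb-1, against 1689, 1877 and 2259 in WT, and was lower on each array (mean -0.22, SE 0.19). The difference between the 2 reductase probes was the most even of the 5 pairs, at 0.62, 0.66 and 0.67 within the arrays (mean 0.65, SD 0.02, exact two-sided sign-flip permutation p = 0.25, the smallest possible). Here as well the 2 probes had opposite signs on every array before the pair was picked, which fixed that p. Among 5 glutathione peroxidase probes, 4 had means above 0 and 0 had an unadjusted p under 0.05. The phospholipid hydroperoxide forms, which reduce peroxides of membrane lipids, led at 0.45 (SGN-U214733, SE 0.24, limma adjusted p = 0.418) and 0.44 (SGN-U216797, SE 0.29). Both owed most of it to replicate 1, with log2 ratios of 0.96, 0.22 and 0.16 for SGN-U214733 and 1.18, 0.09 and 0.06 for SGN-U216797. SGN-U216820 had -0.17 (SE 0.21), which turned to 0.05 under median centring and 0.00 under global loess.

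Glutaredoxins, small proteins that reduce disulphides with glutathione, had 9 tested probes, with 3 higher (33.3%, against 20.4% of all tested probes) and 1 lower (11.1%, against 21.3%) in Lycb-1 on all 3 arrays. SGN-U216398 (glutaredoxin S12) had 4338, 5142 and 2980 in Lycb-1, against 2333, 2714 and 2729 in WT. Its lowest Lycb-1 value, on replicate 3, was just over the highest WT value (mean log2 ratio 0.65, SE 0.24, n = 3, limma adjusted p = 0.308). The WT values were even over the arrays, and the Lycb-1 values ran lower on replicate 3. Monothiol glutaredoxin-4 (SGN-U215415) did not overlap between the groups either, with 5501, 5310 and 4061 in Lycb-1, against 4033, 3736 and 3996 in WT (mean 0.33, SE 0.20). The brightest glutaredoxin, SGN-U217320, had ratios on both sides of 0 (0.65, 0.10 and -0.25), and the lowest mean was -0.31 (SE 0.22) for glutaredoxin C3 (SGN-U218836).

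Thioredoxins and their partners formed the largest family, and 13 of its 17 tested probes had mixed signs, beside 3335 of all 5720 tested probes. The family had 2 probes at an unadjusted p under 0.05 (11.8%, against 15.4% of all tested probes, limma), both higher in Lycb-1. One was subunit A of ferredoxin-thioredoxin reductase (SGN-U213256), the plastid enzyme that passes electrons from ferredoxin to thioredoxins. This probe had 8178, 5926 and 2298 in Lycb-1, against 4251, 2392 and 1829 in WT. Both channels were brightest on replicate 1 and dimmest on replicate 3, and the groups overlapped while each array had a higher Lycb-1 value (mean log2 ratio 0.86, SE 0.25, n = 3, limma adjusted p = 0.261). The Rubisco small chain probes SGN-U225538 and SGN-U225541 had the same order of arrays in Lycb-1, and their part in this ratio was not tested. Of the tested Rubisco small chain probes, SGN-U225501 and SGN-U225519 had this order too, while SGN-U225500, SGN-U225544 and SGN-U225550 did not. Redox probes of other roles also had it in Lycb-1, such as SGN-U213568, SGN-U214733 and SGN-U217320, while others, such as SGN-U216398, did not. The probe described as catalytic subunit B of the same reductase, SGN-U215038, had a mean of the other sign. Its log2 ratios were 0.23, -0.51 and -0.57 (mean -0.29, SE 0.24). The second was SGN-U213670, described only as a thioredoxin family protein, with 7773, 11112 and 4763 in Lycb-1, against 5392, 4401 and 3859 in WT (mean 0.72, SE 0.26, limma adjusted p = 0.302). Its highest ratio, 1.34, was on replicate 2, and its mean was 1.09 with each array centred on its median. Thioredoxins h, the cytosolic type, had 5 tested probes of differing direction. SGN-U226064, the brightest of the family, was lower in Lycb-1 on replicates 1 and 2, with 7627, 9165 and 10860 in Lycb-1, against 12849, 16727 and 10481 in WT (mean -0.52, SE 0.25, limma adjusted p = 0.389). The other h-type probes had means of -0.12 (SGN-U216245), 0.07 (SGN-U233683), 0.13 (SGN-U220834) and 0.29 (SGN-U217593), each with ratios on both sides of 0. SGN-U215851 (thioredoxin) was lower by a small, even amount, with 3681, 3399 and 3256 in Lycb-1, against 4364, 4142 and 4301 in WT, and no overlap (mean -0.31, SE 0.18). The least reproducible redox probe of those named was SGN-U214668, a RING-type zinc finger protein with a thioredoxin-related domain, with log2 ratios of -0.94, 0.74 and -2.48 (mean -0.89, SE 0.61), and -0.10 without replicate 3.

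Peroxiredoxins, which reduce peroxides through a reactive cysteine, were read by 2 probes of that role, while a further probe carries another name. SGN-U213568 (peroxiredoxin) had 15079, 9150 and 5320 in Lycb-1, against 8517, 3723 and 4851 in WT (mean log2 ratio 0.75, SE 0.28, n = 3, limma adjusted p = 0.305). Each array was higher in Lycb-1, though by only 0.13 on replicate 3, and the groups overlapped. SGN-U232964 (thioredoxin peroxidase 1) had ratios of both signs (0.40, -0.32 and -0.56). The highest mean of the whole redox set, 1.43 (SE 0.52, limma adjusted p = 0.3), belonged to SGN-U214003, described as a bacterioferritin comigratory protein. It was placed with the ferritins by that word, while its best Arabidopsis match, AT3G26060, encodes the plastid peroxiredoxin Q. It had 8519, 3572 and 1729 in Lycb-1, against 1378, 1097 and 1766 in WT. The log2 ratios of 2.63, 1.70 and -0.03 lay on both sides of 0, the 95% interval of the mean was 0.10 to 2.77, and the mean was 2.17 without replicate 3 and 0.84 without replicate 1. Its Lycb-1 values followed the order of arrays of the Rubisco probes SGN-U225538 and SGN-U225541 as well, which some other Rubisco small chain probes did not share. That order was not particular to SGN-U214003, and SGN-U213568 above had it too. The part of SGN-U225538 and SGN-U225541 in the ratio of SGN-U214003 was not tested.

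Metal-binding proteins had lower values in Lycb-1 for ferritin and divided ones for metallothionein. Ferritin, the plastid iron store, was read by a pair of probes with the same accession. SGN-U213609 had 10468, 6536 and 8371 in Lycb-1, against 14913, 14346 and 12221 in WT, with every Lycb-1 value below every WT value (mean log2 ratio -0.73, SE 0.22, n = 3, limma adjusted p = 0.267), and the mean was -0.24 with each array centred on its median. The dimmer SGN-U213608 had log2 ratios of -0.32, -1.22 and -0.10 (mean -0.55, SE 0.28), again the lowest on replicate 2. Metallothionein type 2 B (SGN-U212974) had 21178, 18551 and 15630 in Lycb-1, against 23951, 31733 and 25267 in WT. Its groups did not overlap (mean -0.55, SE 0.21, limma adjusted p = 0.318), but the mean was 0.01 with each array centred on its median, so its direction depends on the scaling, as did that of SGN-U214788 (-0.30, and 0.15 under that centring). The brightest metallothionein, SGN-U213355 (type 2), had 34242, 51009 and 15194 in Lycb-1, against 24897, 17515 and 23912 in WT, with log2 ratios of 0.46, 1.54 and -0.65 (mean 0.45, SE 0.44). SGN-U214993 (type 2 A) and SGN-U214992 (type 2) shared its pattern of values above 0 on replicates 1 and 2 and below 0 on replicate 3, at 0.49, 1.30 and -0.79 for SGN-U214993 and 1.20, 0.30 and -0.29 for SGN-U214992.

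**Figure D5:**
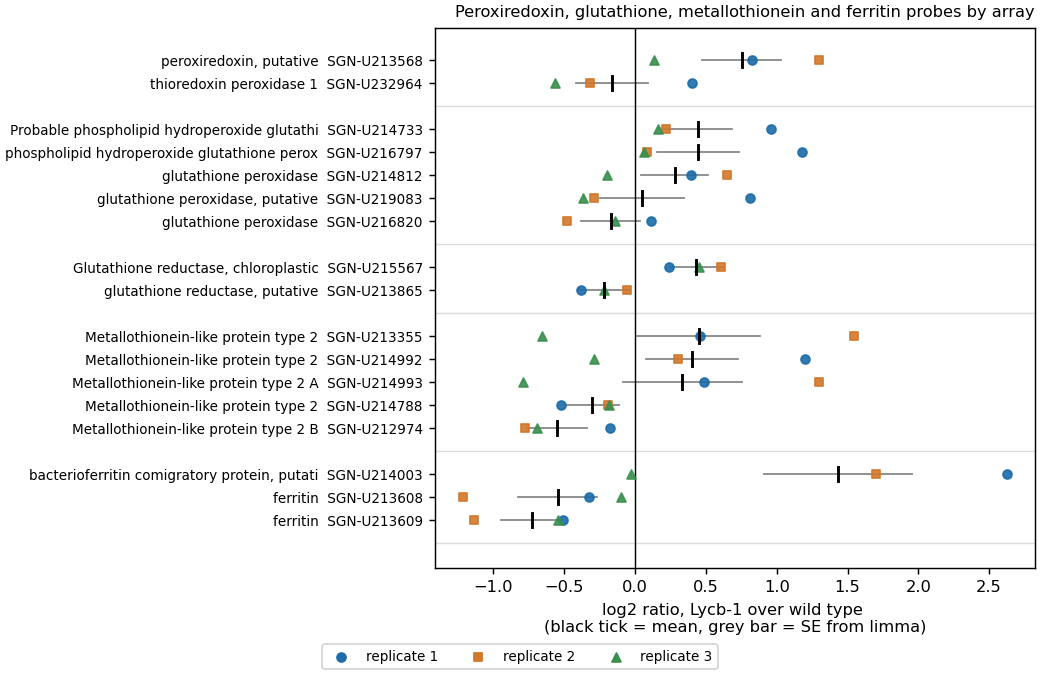
Log2 ratio of Lycb-1 over WT on each array for the tested peroxiredoxin, glutathione peroxidase, glutathione reductase, metallothionein and ferritin probes, from top to bottom, with the mean and the SE from limma. Replicate 3 stands left of the other arrays for the metallothioneins with means above 0 and for SGN-U214003, whose mean is 1.43.

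Replicate 3 gave lower redox ratios than the other arrays. The redox probes had a median log2 ratio of 0.11 on replicate 1, 0.08 on replicate 2 and -0.13 on replicate 3. The medians of all tested probes were -0.0092, -0.0047 and -0.022 on these arrays. Of the 79 redox probes, 51, 43 and 32 lay above 0, and this was not counted for all probes. As a description over 79 probes, which are not independent replicates and share their arrays and dyes, Pearson's r was 0.58 between replicates 1 and 2, 0.28 between 1 and 3 and 0.31 between 2 and 3, beside 0.38, 0.30 and 0.16 over all tested probes. Among the 41 probes of mixed sign, replicate 3 was the array that stood alone for 17 (41.5%), and replicates 1 and 2 for 12 each. Over all probes of mixed sign, replicate 3 stood alone for 34.3%. Without replicate 3 the median of the redox probes was 0.17.

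Probes with the same annotated match did not always share a direction, and some sets may hold different genes, since the match is often to a protein of another species. Of 10 sets of tested probes with a common protein accession, 21 probes in all, 6 had means of 1 sign and 4 of both. Of 8 sets with a common best Arabidopsis locus, 3 had 1 sign and 5 both. The catalase set of AT4G35090 spanned -1.15 to 0.57 and was the widest, followed by the dehydroascorbate reductases of AT5G16710, which spanned -0.45 to 0.54.

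Redox genes outside the chosen words were taken from a list of 29 probes for NADPH supply, glutathione and tocopherol synthesis, sugar phosphate steps before ascorbate, alternative oxidase, respiratory burst oxidases, and methionine sulfoxide and quinone reductases. Of its 17 tested probes, 2 had an unadjusted p under 0.05, beside 15.4% of all tested probes, both higher in Lycb-1, and 0 passed after adjustment (limma). FQR1, a flavodoxin-like quinone reductase (SGN-U231476), had log2 ratios of 0.98, 0.53 and 0.65 (mean 0.72, SE 0.20, n = 3, limma adjusted p = 0.249). A methionine sulfoxide reductase domain protein (SGN-U219932), of the enzymes that repair oxidised methionine, had 0.89, 0.64 and 0.53 (mean 0.69, SE 0.19, limma adjusted p = 0.249), and a mean of 1.28 with each array centred on its median. Phosphomannomutase (SGN-U216352), which acts before GDP-mannose pyrophosphorylase, had log2 ratios of 0.65, 0.34 and 0.25 (mean 0.41, SE 0.19). The 17 probes had a median of 0.14 and a range of -0.27 to 0.72. On all arrays 5 were higher and 3 lower, beside 20.4% and 21.3% of all tested probes. Alternative oxidase 1a (SGN-U214691), the mitochondrial enzyme that bypasses the cytochrome chain, had -0.49, 1.16 and -0.23.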

How the data were processed

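RNA of ripe fruit was hybridised as amplified and labelled cDNA to 3 two-colour TOM2 arrays. Each array had its own pool of Lycb-1 (Cy5) and of WT (Cy3) fruit, and p-values measure the spread between these 3 pairs. The paper calls the pools biological and does not state whether they were grown or harvested separately. The authors deposited background-subtracted intensity values for both channels. They also deposited a ratio of Lycb-1 over WT after print-tip lowess, whose log2 values fill the deposited series table. Their files of checked and of differentially expressed spots hold the same values, and their selection of differentially expressed spots was not used here.

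Here limma 3.58.1 under R 4.3.3 was used to normalise the intensities by print-tip loess, with 48 blocks that each hold 286 spots and a weight of 0 for controls. Values at or below 0 were left out. Spots of at least 400 units in the brighter channel on all 3 arrays were kept (5720 probes), and the mean log2 ratio was tested two-sided with lmFit and eBayes (prior degrees of freedom 3.06) and Benjamini-Hochberg adjustment over all of them. Normalised intensities of the channels follow from the normalised ratio and the mean signal of a spot. The steps were tested on simulated data. Arrays give no counts, and precision is limited by having 3 of them.

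Named were all redox probes at an unadjusted p under 0.05 and, in each role, the probes with the largest ratio, the highest signal and, in roles of 4 or more, the largest ratio of the other sign; other probes named were chosen after their values were seen. The members, lists and tests were chosen with earlier results of these data known. The reference table matched 0 of the 125 probe names, so names and Arabidopsis matches (115 probes) are those of the array files. Alternatives covered normalisation, an offset of 50, the filter, the test, the pairing of channels and each replicate left out. Figures were drawn with matplotlib 3.10.9 in Python 3.11.15.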

Additional observations from a re-analysis of the deposited data

How the results depend on the processing

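Under all 11 alternatives 0 redox probes passed an adjusted p under 0.05 (16 at an unadjusted p by limma as reported), and 26 of 31 named redox probes kept the sign of their mean log2 ratio. The count of all probes at an adjusted p under 0.05, 3 as reported, was 0 with the authors' ratio, without a filter and with the methods' t-test, 1 with both channels at 400 units or more, 8 with the channels unpaired (no replicate block), 9 with global loess, 17 with median centring and 0 to 1 with a replicate left out. The 16 redox probes at an unadjusted p under 0.05 became 5 with the methods' t-test and 8 without the replicate block, where the ratio within an array otherwise pairs its pools, and 6 to 17 with a replicate left out. Of the 16, 8 remained without replicate 1, 4 without replicate 2 and 11 without replicate 3. Redox probes lower on every array, 16 as reported, were 10 with median centring and 20 to 27 of those on the 2 arrays left, and those higher on every array, 22 as reported, were 23 to 35. Their median of 0.02 was 0.20 with median centring and -0.0645 to 0.17 with a replicate left out.

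The mean log2 ratio reversed to 0.0104 for SGN-U212974 and 0.0525 for SGN-U216820 with median centring, and to 0.00121 for SGN-U216820 with global loess. With a replicate left out it ran from -0.20 to 0.17 for M37150 and from -0.0756 to 0.373 for SGN-U217320, both reversed without replicate 1, and from -0.0973 to 1.00 for SGN-U213355, reversed without replicate 2. The cause was not tested. Leaving out a replicate leaves 2 arrays for each mean, and the 46 dim redox probes, with 8 ascorbate oxidases, have no tested value here.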
